A study of Homo sapiens with 6 samples.

Results

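The 29 genes described here make cholesterol, take it up, export it, or control these processes through SREBP2. They were chosen by name from 58676 gene rows, with earlier results of these data known and with no measured value in the rule, and all 29 were found in the table, matched by Ensembl gene ID to their symbols in GENCODE release 29 (GRCh38). They fall into 5 steps: 7 enzymes of early synthesis, 11 of late synthesis, 3 genes of uptake and intracellular transport, 4 of export and its control by LXR, and 4 of the SREBP machinery. RNA from human cells, labelled as an HCC cell line and kept in DMEM with 10% FBS in both groups, was sequenced, and levels are given as RPKM, reads scaled for exon length and library depth. There are 3 libraries labelled knockdown, titled sponge, and 3 labelled control, titled with a number. A sponge is a transcript with binding sites for a microRNA, and the series title names miR-19a, in cells it calls treated, so the direction is taken from the group labels. Mature miR-19a is not measured here and could not be used to check them. The labels name no cell line, vector or clone and do not say whether replicates were grown apart, so a p-value covers only the spread between libraries, which may be technical. Knockdown replicate 2 was left out because its column is not aligned with its gene IDs, with a Spearman correlation across genes of 0.017 to 0.019 with the other libraries, against 0.822 or more among those 5. The comparison is therefore knockdown replicates 1 and 3 against control replicates 1, 2 and 3.

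Cells build cholesterol from acetyl-CoA. The early, mevalonate part of the pathway ends at farnesyl diphosphate, and the late part turns this into squalene, closes the rings to lanosterol and trims lanosterol to cholesterol. SREBP2, encoded by SREBF2, is the transcription factor that switches these enzymes on: when the endoplasmic reticulum is low in sterol, SCAP carries it to the Golgi, where it is cut and released to the nucleus, and when sterol is plentiful the INSIG proteins hold SCAP back. LXR is the opposing sensor, bound by oxysterols, which switches on export genes. In liver these controls set how much cholesterol hepatocytes make and secrete.

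The labels name a sponge and the series title miR-19a, so this microRNA, its sister miR-19b and the matches to them in these genes are shown first. The seed, bases 2 to 8 from the 5′ end, is in capitals in the mature sequences from RefSeq (GRCh38.p14), which share that seed.
hsa-miR-19a-3p: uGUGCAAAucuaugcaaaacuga
hsa-miR-19b-3p: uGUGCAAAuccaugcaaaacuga
The match to this seed, TTTGCAC, was searched in the longest 3' UTR that GENCODE 29 annotates for each gene. It occurs in 9 of the 29 genes (31.0%), against 1898 of 11775 tested coding genes (16.1%). The median length searched was 1263 bases for the 29 genes and 1582 bases for the tested coding genes. The 9 genes are HMGCS1, LSS, MSMO1, NPC1, ABCA1, MYLIP, NR1H3, INSIG1 and INSIG2, and ABCA1 holds 2 matches. Sites are shown for genes that the results below turn on, with the match in capitals and coordinates in GRCh38.
INSIG2, chr2:118109179-118109208 (plus strand): aatctcattgctTTTGCACatggagcatat
INSIG1, chr7:155310113-155310142 (plus strand): gtatgaacaaaaTTTGCACtctaccagatt
HMGCS1, chr5:43290273-43290302 (minus strand): ttgcagtccttcTTTGCACcttattttaaa
MSMO1, chr4:165343017-165343046 (plus strand): tgacttgctgtaTTTGCACtttgagctctt
ABCA1, chr9:104784246-104784275 (minus strand): actagactttccTTTGCACcatgtgaagtg
ABCA1, chr9:104781188-104781217 (minus strand): atgggatctattTTTGCACtggaatatctg
A match is a description of the letters and not a measured site. The 9 genes with a match had a median log2 difference of -0.28 and the 20 without one of -0.28, and both the highest difference among the 29 genes (INSIG2) and one of the lowest (HMGCS1) belong to genes with a match. Over all tested coding genes the median was -0.09 with a match and 0.01 without one. Among all genes tested, those with longer exons tended to have lower differences (Spearman -0.23). Those richer in GC tended to have higher ones (Spearman 0.28). Whether length or GC content accounts for the gap between the medians with and without a match was not tested.

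Most synthesis genes were lower in the knockdown libraries, INSIG1 was lower with them, and INSIG2 was higher. No gene passed the test, neither one of the 29 nor any other: limma on log2(RPKM + 0.5), two-sided, called 0 of 15408 genes higher (0%) and 0 lower (0%) at a Benjamini-Hochberg adjusted p under 0.05. At an unadjusted p under 0.05, 585 of all genes (3.8%) were higher and 392 (2.54%) lower, and of the 29 genes INSIG2 was higher and HMGCS1, CYP51A1, NSDHL and INSIG1 were lower. The adjusted p of the 29 genes, all of which were above the filter on low values, was 0.71 to 0.84, so what follows describes levels and differences that are not calls. Of the 29, 21 had a log2 difference below 0 and 8 above, with a median of -0.28, while 7707 of all 15408 genes (50%) were below 0, with a median of 0.00. Both knockdown libraries lay below all 3 controls for 11 of the 29 genes, against 13.6% of all genes, and above all 3 for 7 of them, against 14.3% of all genes. For the other 11 the groups overlapped.

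**Figure D1:**
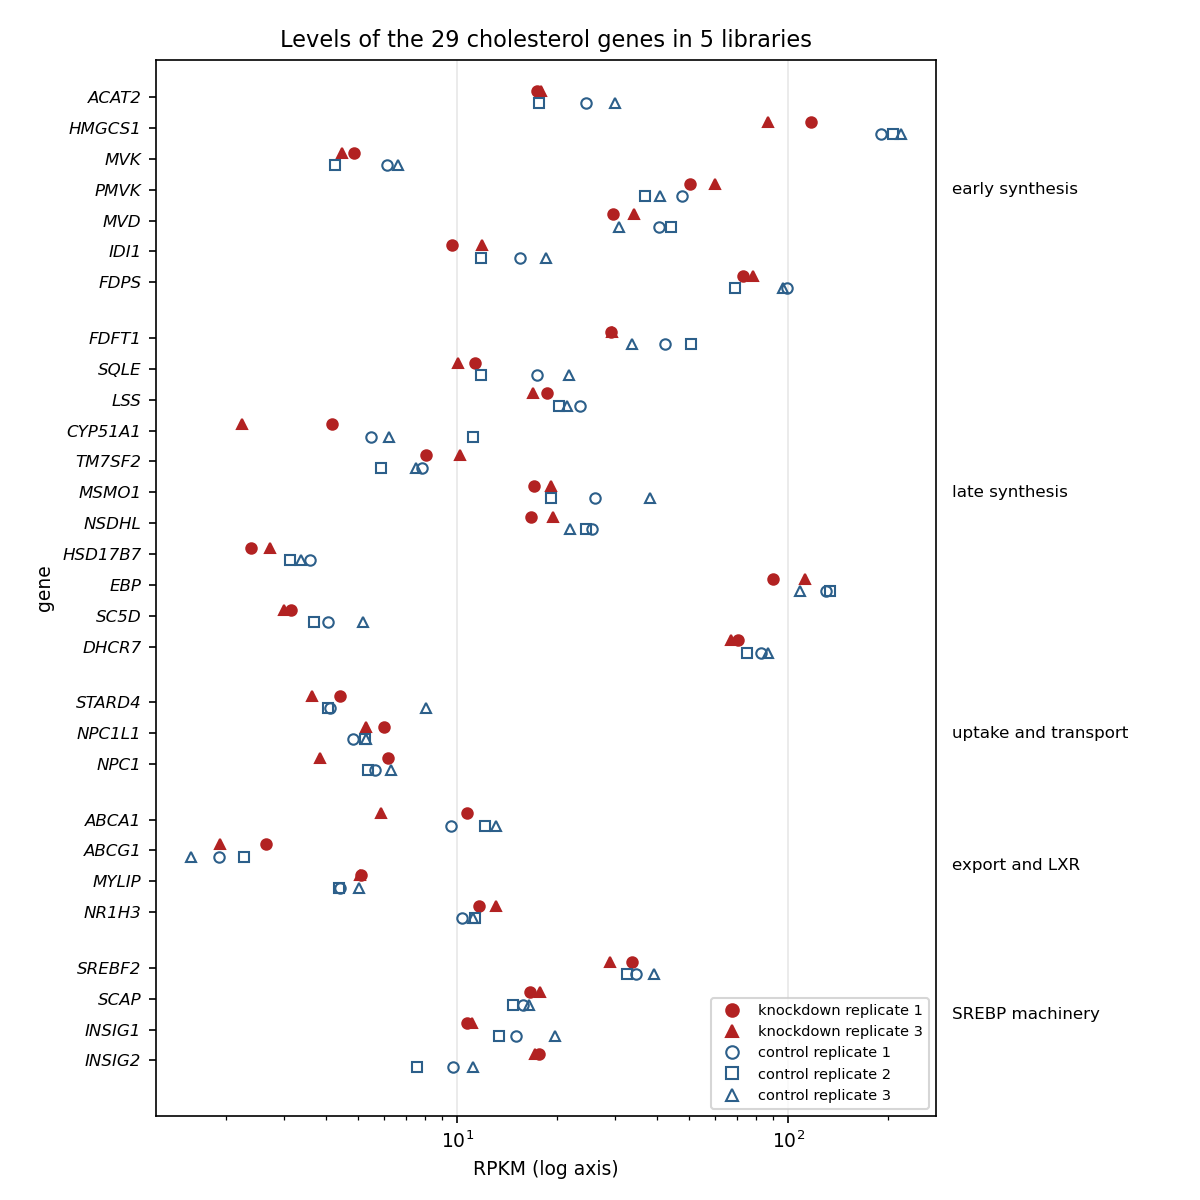
RPKM of each of the 29 genes (log axis) in each library, in rows by pathway step, with knockdown libraries as filled points just above the open control points of the same gene and 1 marker shape per replicate number. HMGCS1 has the highest mean in each group and shows separated groups, and INSIG2 is the gene of the bottom row with both knockdown points to the right.

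The reads behind the RPKM values numbered 9296308 and 15198231 in the knockdown libraries and 1948940 to 19605312 in the controls, where replicate 2 was the shallowest. Mitochondrial transcripts took 7.83% to 8.30% of reads in knockdown and 4.94% to 10.4% in control. All 13 hepatocyte markers were detected and summed to 3171 to 3658 RPKM in knockdown and 3113 to 3564 RPKM in control, so liver markers were high in both groups. Of 7 fibroblast markers, 4 passed the filter, and the list summed to 68.4 to 72.5 RPKM in knockdown and 63.9 to 83.7 RPKM in control. Endothelial markers, 1 of 5 above the filter, summed to 0.388 to 0.406 RPKM in knockdown and 0.523 to 0.760 RPKM in control, with KDR and TEK at 0. Blood and immune markers, 3 of 6 above the filter, summed to 46.2 to 52.3 RPKM in knockdown and 44.3 to 51.3 RPKM in control, with MS4A1 at 0 and PTPRC, which marks all leukocytes, at 0.0713 RPKM or less. Most of that sum is CD14, at 30.6 to 36.8 RPKM in knockdown and 28.6 to 38.4 RPKM in control. LYZ adds 9.36 to 9.39 RPKM in knockdown and 8.59 to 11.6 RPKM in control. LUM, at 53.5 to 54.5 RPKM in knockdown and 54.2 to 68.3 RPKM in control, makes up most of the fibroblast sum, in which single genes separated the groups in both directions. COL1A1 was at 2.33 and 2.16 RPKM in knockdown and at 1.21, 0.732 and 1.99 RPKM in control, and COL1A2 at 14.7 and 12.02 RPKM in knockdown and at 8.79, 7.54 and 11.7 RPKM in control, while PDGFRA was at 0.431 and 0.352 RPKM in knockdown and at 0.795, 0.580 and 1.11 RPKM in control. Of the other lists' genes above the filter, CD3D of T cells was higher in both knockdown libraries (6.09 to 6.14 RPKM) than in controls (3.07 to 4.46 RPKM), as was TF of hepatocytes (81.4 to 82.4 RPKM in knockdown and 55.3 to 64.4 RPKM in control), and PECAM1 of endothelium was lower (0.322 to 0.360 RPKM in knockdown and 0.513 to 0.661 RPKM in control). None of these passed the test, and their part in the results below was not tested. In bulk RNA a smaller share of cells that use a gene and less RNA per cell cannot be told apart.

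Early synthesis was led by HMGCS1 (ENSG00000112972, chromosome 5 from 43289395 to 43313512, minus strand), the synthase that makes HMG-CoA. It was at 116.9 and 86.7 RPKM in knockdown replicates 1 and 3, and at 189.7, 206.2 and 218.04 RPKM in control replicates 1 to 3. Both knockdown libraries were far below the lowest control, on 1890 reads or more in every library. AC114947.2, on the opposite strand, overlaps 15.0% of its exon bases and was at 0.646 to 1.65 RPKM. The log2 difference was -1.02 (SE 0.20, 95% interval -1.51 to -0.53, limma adjusted p = 0.71), and 37 of 15408 genes had a smaller unadjusted p. HMGCS1 had the highest mean RPKM of the 29 genes in each group, although EBP was above it in knockdown replicate 3 (112.0 RPKM). It made up 20.4% and 14.8% of the summed RPKM of the 18 synthesis genes in knockdown, against 24.0%, 27.5% and 27.5% in control.

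The other 6 early enzymes overlapped between groups except for PMVK. ACAT2, the cytosolic thiolase that makes acetoacetyl-CoA, was at 17.4 and 18.0 RPKM in knockdown and at 24.4, 17.7 and 29.9 RPKM in control. Control replicate 2 lay between the knockdown libraries there. ACAT2 is uncertain, since TCP1 (68.3 to 89.9 RPKM) overlaps 9.24% of its exon bases on the opposite strand and strand use is not stated. Also on the opposite strand, SOD2-OT1 (0 to 0.0383 RPKM) overlaps 33.9% of the ACAT2 exon bases and SOD2 (0 to 0.0514 RPKM) 26.5%. IDI1, which isomerizes isopentenyl diphosphate, was at 9.63 and 11.9 RPKM in knockdown and at 15.5, 11.8 and 18.5 RPKM in control, again with control replicate 2 beside the knockdown values. The log2 differences were -0.40 (SE 0.24) for ACAT2 and -0.47 (SE 0.23) for IDI1. MVK, the mevalonate kinase, and MVD, the mevalonate diphosphate decarboxylase, differed by -0.23 (SE 0.23) and -0.26 (SE 0.21), and FDPS, which makes farnesyl diphosphate, by -0.20 (SE 0.21). PMVK, the phosphomevalonate kinase between MVK and MVD in the pathway, stood on the other side. It was at 50.5 and 60.0 RPKM in knockdown and at 47.6, 36.9 and 40.8 RPKM in control, a log2 difference of 0.40 (SE 0.18, 95% interval -0.04 to 0.85). Its knockdown values lay above all 3 controls, and it was the single early enzyme with a difference above 0. After removal of the trends that each library showed with exon length and GC content, the difference was 0.20.

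In late synthesis both knockdown libraries lay below all 3 controls for 9 of 11 genes, against 13.6% of all genes, and the median log2 difference was -0.39. In early synthesis this held for 1 of 7 genes, with a median of -0.26. Without control replicate 2 the order of the medians changed, to -0.41 for early and -0.37 for late synthesis. The difference between these steps was not tested. FDFT1, the squalene synthase, was at 29.1 and 29.4 RPKM in knockdown and at 42.5, 50.9 and 33.6 RPKM in control, a log2 difference of -0.51 (SE 0.21). SQLE, the squalene epoxidase and a control point of the pathway, was at 11.3 and 10.1 RPKM in knockdown and at 17.4, 11.8 and 21.8 RPKM in control, a difference of -0.60 (SE 0.28). The knockdown libraries were close together for both genes, while the controls of SQLE were widely spread and lowest in replicate 2. NSDHL, a sterol dehydrogenase of the demethylation steps, was at 16.7 and 19.5 RPKM in knockdown and at 25.4, 24.4 and 21.8 RPKM in control, a difference of -0.39 (SE 0.16, 95% interval -0.78 to -0.00).

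CYP51A1, the lanosterol demethylase, had the lowest difference of the 29 genes, -1.12 (SE 0.38, 95% interval -2.08 to -0.15). It was at 4.17 and 2.24 RPKM in knockdown and at 5.47, 11.2 and 6.22 RPKM in control. The groups were separate, but control replicate 2, with 78 reads, was well above the other 2 controls, and the difference was -0.82 without it and -0.73 without knockdown replicate 3. Its level is also the least certain: 2844 of its 3584 exon bases (79.4%) are shared on the same strand with AC000120.2, which was listed at 0 in all 5 libraries, and how the authors' counting shared out reads of overlapping genes is not given. Its pseudogene CYP51A1P2 was at 0.307 to 2.74 RPKM.

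Of the remaining late enzymes, MSMO1, the methylsterol oxidase, had a difference of -0.55 (SE 0.30), with a highest knockdown value of 19.1 RPKM against a lowest control of 19.2 RPKM, and the difference was -0.30 without control replicate 3. DHCR7, the reductase of the last step to cholesterol, had a difference of -0.24 (SE 0.15) with the groups separate. LSS, which closes the rings, SC5D, a desaturase, and HSD17B7, a ketoreductase, likewise had both knockdown libraries below all controls, with differences of -0.28 (SE 0.15), -0.42 (SE 0.20) and -0.34 (SE 0.18). HSD17B7 is uncertain, since its pseudogene HSD17B7P2 (0.506 to 1.36 RPKM) could share reads with it. HSD17B7 also had only 29 reads in control replicate 2. EBP, the sterol isomerase and the second highest of the 29 genes by RPKM in control, overlapped between groups at -0.29 (SE 0.19). TM7SF2, a sterol reductase, was the exception of the late step at 8.05 and 10.2 RPKM in knockdown and at 7.83, 5.87 and 7.48 RPKM in control, a difference of 0.35 (SE 0.20) with the groups separate. It was named after its values were seen, and its difference was 0.07 with the length and GC trends removed.

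The 18 synthesis genes summed to 572.4 and 585.8 RPKM in knockdown and to 791.2, 749.0 and 794.3 RPKM in control, so the knockdown mean was 0.744 of the control mean. Without HMGCS1 the other 17 summed to 455.4 and 499.1 RPKM in knockdown and to 601.5, 542.8 and 576.2 RPKM in control, a ratio of 0.832. These sums weigh the abundant enzymes most. In the per-gene medians of late synthesis, which weigh genes equally, both knockdown libraries (-0.28 and -0.23) again lay below all 3 controls (0.19, 0.02 and 0.14), as deviations in log2(RPKM + 0.5) from each gene's mean over the 5 libraries. In early synthesis the knockdown libraries, at -0.26 and -0.14, lay on either side of control replicate 2 at -0.24, and below controls 1 and 3 at 0.22 and 0.32. Among the controls alone, 14 of the 29 genes (48.3%) and 7 of the 18 synthesis genes (38.9%) were lowest in replicate 2 and highest in replicate 3, against 37.8% of all genes tested. The low depth and high mitochondrial share (10.4%) of control replicate 2 move with this, and their part in it was not tested.

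**Figure D2:**
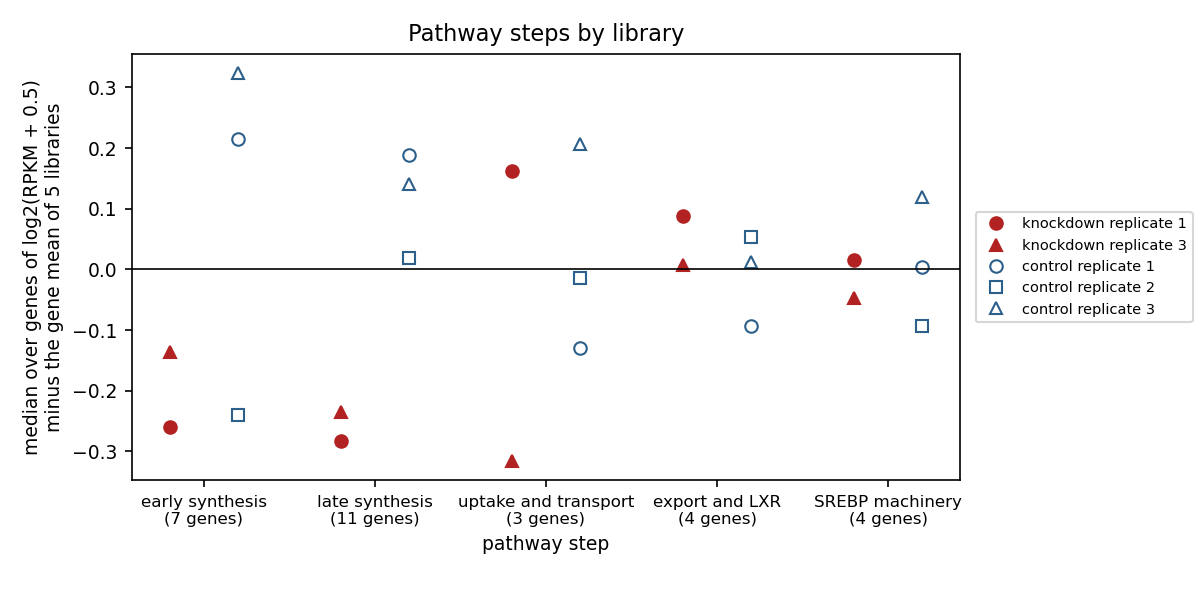
Median over the genes of each step of log2(RPKM + 0.5) minus the gene's mean over the 5 libraries (vertical axis), for 2 knockdown libraries (filled, left) and 3 control libraries (open, right) of each step. Late synthesis is the single step in which both knockdown points (-0.28 and -0.23) lie below all control points; in early synthesis control replicate 2 lies at -0.24.

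The SREBP machinery had a median difference of -0.03, with its members on both sides of 0. SREBF2 was at 33.7 and 28.8 RPKM in knockdown and at 34.7, 32.5 and 39.4 RPKM in control, a log2 difference of -0.18 (SE 0.16, 95% interval -0.59 to 0.22) with the groups overlapping. SCAP, the escort protein, was at 16.6 and 17.8 RPKM in knockdown and at 15.8, 14.8 and 16.4 RPKM in control, a difference of 0.13 (SE 0.14, 95% interval -0.22 to 0.48). Both intervals include 0, and that of SREBF2 still allows a log2 difference as low as -0.59.

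The 2 INSIG genes stood on opposite sides of the controls. INSIG1 (ENSG00000186480, chromosome 7 from 155297776 to 155310235, plus strand), a retention protein whose gene is itself a known SREBP target, was at 10.7 and 11.1 RPKM in knockdown and at 15.0, 13.4 and 19.7 RPKM in control. INSIG2 (ENSG00000125629, chromosome 2 from 118088452 to 118110997, plus strand), its paralog, whose transcription is known not to need SREBP, was at 17.6 and 17.1 RPKM in knockdown and at 9.68, 7.53 and 11.1 RPKM in control. The groups were separate for both genes, in opposite order. The log2 difference was -0.52 (SE 0.20, 95% interval -1.03 to -0.01) for INSIG1 and 0.86 (SE 0.20, 95% interval 0.36 to 1.36) for INSIG2, the highest of the 29 genes, both at limma adjusted p = 0.71. Of all 15408 genes, 97 had a smaller unadjusted p than INSIG2. Within a library the ratio of INSIG2 to INSIG1 RPKM was 1.65 and 1.55 in knockdown and 0.645, 0.564 and 0.564 in control, so INSIG2 was the more abundant of the pair in knockdown libraries and the less abundant in controls. Their summed level overlapped, at 28.3 and 28.2 RPKM in knockdown and 24.7, 20.9 and 30.8 RPKM in control, and their sum over SCAP was 1.70 and 1.58 in knockdown and 1.56, 1.42 and 1.88 in control. The ratio was picked out after the values were seen and was not tested.

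**Figure D3:**
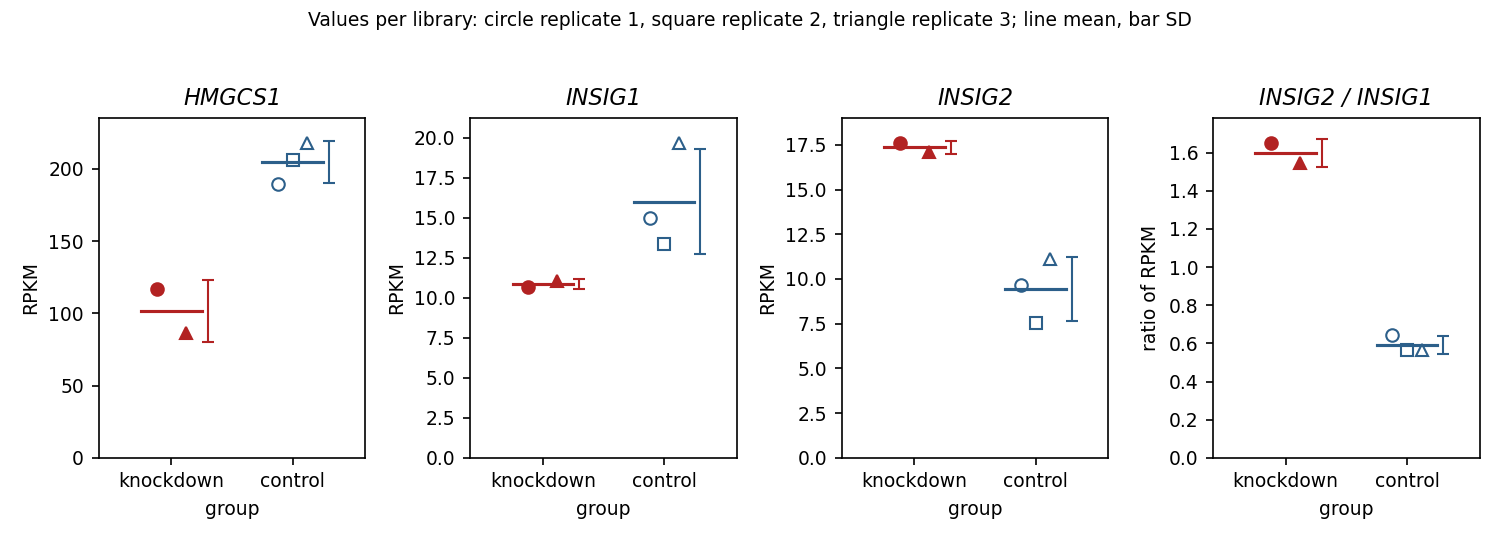
RPKM of HMGCS1, INSIG1 and INSIG2 and the ratio of INSIG2 to INSIG1 per library, knockdown (2 libraries) left and control (3 libraries) right, with the mean as a line and the SD as a bar. The ratio is 1.65 and 1.55 in knockdown and 0.564 to 0.645 in control.

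The 95% intervals of the uptake and transport genes all included 0, and their median difference was -0.22. STARD4, a sterol carrier and known SREBP2 target, was at 4.41 and 3.65 RPKM in knockdown and at 4.12, 4.06 and 8.02 RPKM in control, and its difference of -0.32 (SE 0.33) rested on control replicate 3, since it was -0.03 without that library. NPC1, which moves cholesterol out of lysosomes, was at 6.19 and 3.84 RPKM in knockdown and at 5.64, 5.38 and 6.31 RPKM in control. The knockdown libraries disagreed, and the difference of -0.22 (SE 0.23) was 0.09 without knockdown replicate 3. NPC1L1, the sterol transporter of the cell surface that ezetimibe blocks, was at 6.02 and 5.30 RPKM in knockdown and at 4.83, 5.28 and 5.28 RPKM in control, a difference of 0.13 (SE 0.16, 95% interval -0.27 to 0.53).

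The intervals of the export genes and their LXR regulators also included 0, and their median difference was 0.15. ABCA1 (chromosome 9 from 104781002 to 104928237, minus strand), which loads cholesterol onto apolipoprotein A-I and holds 2 miR-19 seed matches, was at 10.7 and 5.88 RPKM in knockdown and at 9.58, 12.2 and 13.1 RPKM in control. The lower mean came from knockdown replicate 3, as the difference of -0.51 (SE 0.29, 95% interval -1.24 to 0.21) was -0.11 without that library and -0.91 without knockdown replicate 1. ABCG1, which exports cholesterol to mature HDL, was at 2.64 and 1.92 RPKM in knockdown and at 1.90, 2.26 and 1.57 RPKM in control, a difference of 0.20 (SE 0.23) that was 0.016 when knockdown replicate 1 was left out and 0.39 when knockdown replicate 3 was. It had as few as 27 reads in control replicate 2. NR1H3, which encodes LXR alpha, was at 11.6 and 13.1 RPKM in knockdown and at 10.4, 11.3 and 11.2 RPKM in control, a difference of 0.17 (SE 0.15). MYLIP, an LXR-induced ubiquitin ligase that lowers lipoprotein receptors at the cell surface, was at 5.11 and 5.10 RPKM in knockdown and at 4.42, 4.40 and 5.05 RPKM in control, a difference of 0.13 (SE 0.16). For NR1H3 and MYLIP both knockdown values were above all controls, by margins smaller than the range of the controls. MYLIP had 26 reads in control replicate 2.

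**Figure D4:**
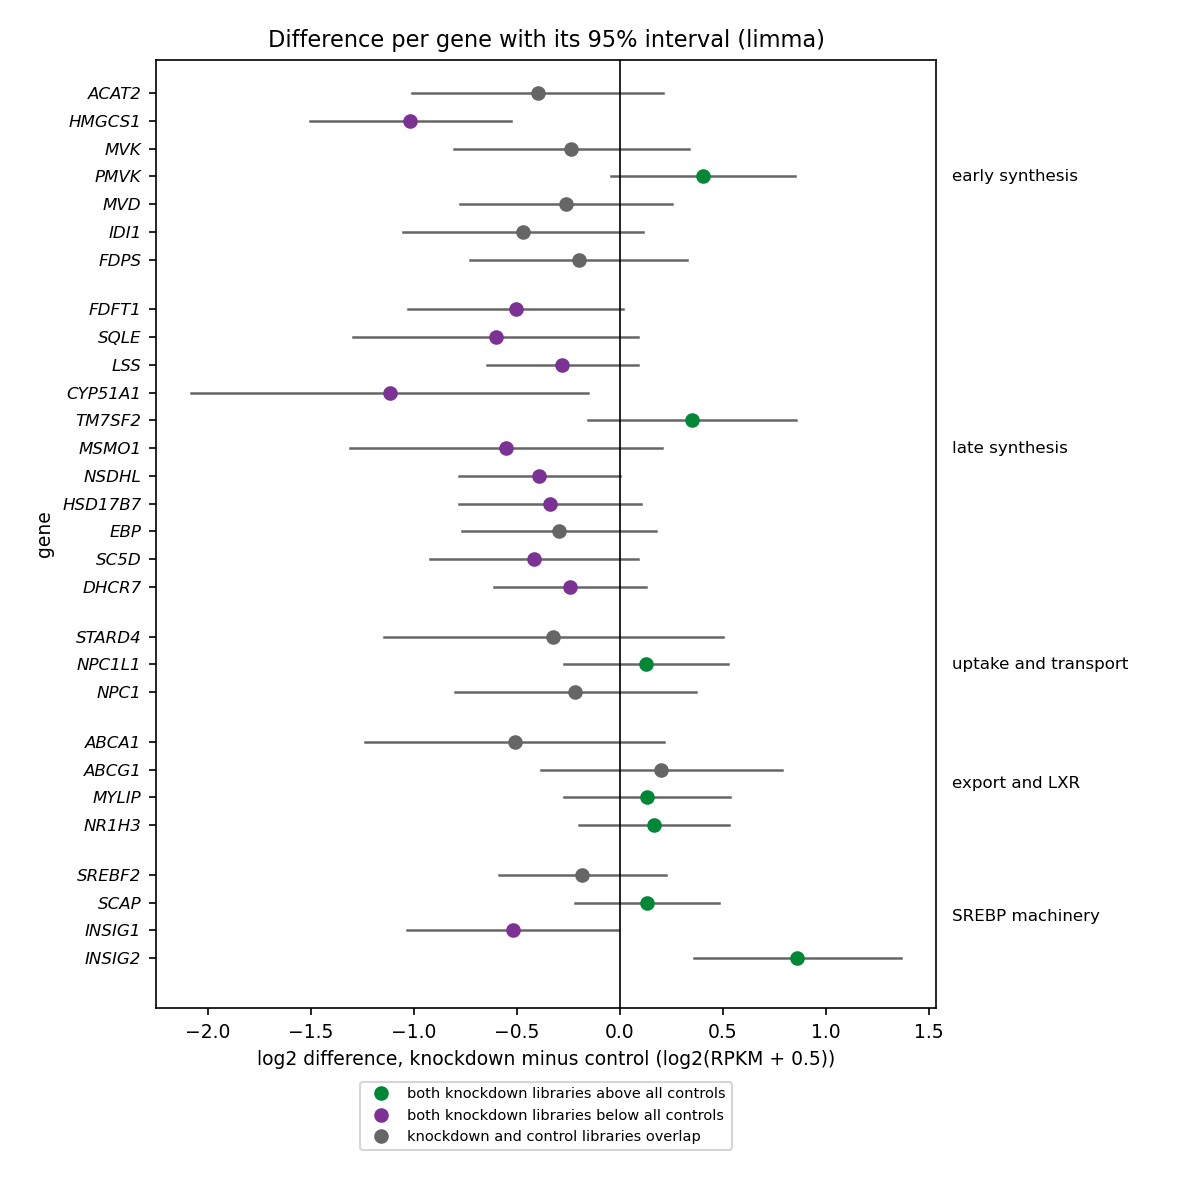
Log2 difference, knockdown minus control, of log2(RPKM + 0.5) for each gene with its 95% interval from limma, by pathway step, with colour showing whether both knockdown libraries lay above or below all 3 controls. The intervals of HMGCS1, CYP51A1, NSDHL and INSIG1 lie below 0 and that of INSIG2 above 0, before adjustment over all genes.

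Of 62 names in the lists of other sterol genes, 60 were found and 51 passed the filter on low values; 0 passed the test in either direction, 32 were below 0 and 19 above, with a median of -0.13. Both knockdown libraries lay below all controls for 11 of the 51, against 13.6% of all genes, and above them for 5, against 14.3% of all genes. Among other genes of SREBP processing and sterol sensing, 6 of 11 were below 0, with a median of -0.16. ERLIN1, which helps degrade sterol-regulated proteins, was at -0.34 (SE 0.20). In the isoprenoid branch, which uses the products of early synthesis, 9 of 12 were below 0, with a median of -0.09 that was -0.26 when control replicate 2 was left out and 0.021 when control replicate 3 was. There ICMT, which methylates prenylated proteins, was at -0.35 (SE 0.15) and PDSS1, which makes the ubiquinone tail, at -0.47 (SE 0.25). Lipoprotein receptors and adaptors had 4 of 6 below 0, with a median of -0.21. LRP8, a receptor for apolipoprotein E and reelin, was at 0.975 and 0.660 RPKM in knockdown and at 1.51, 1.60 and 1.85 RPKM in control, a difference of -0.72 (SE 0.23).

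Esterification, lysosomal release and transfer genes had 7 of 11 below 0, with a median of -0.13 that was -0.22 when control replicate 2 was left out and -0.017 when control replicate 3 was. GRAMD1A, a sterol transfer protein, was at 0.36 (SE 0.16) and NCEH1, a cholesteryl ester hydrolase, at -0.42 (SE 0.23). Other export genes and nuclear receptors had 4 of 6 below 0, with a median of -0.24, led by the coregulators NCOA6 at -0.56 (SE 0.20) and NCOR1 at -0.44 (SE 0.18). Oxysterol and bile acid synthesis genes had 2 of 5 below 0, with a median of 0.45. CYP27A1, which makes an oxysterol that LXR binds, was at 8.22 and 10.3 RPKM in knockdown and at 6.61, 6.71 and 6.48 RPKM in control, a difference of 0.45 (SE 0.16). NR1H4, the bile acid receptor FXR, was at 6.52 and 7.11 RPKM in knockdown and at 9.85, 8.63 and 11.4 RPKM in control, a difference of -0.51 (SE 0.18). For both genes the groups were separate and the limma adjusted p was 0.71. CYP7A1 and CH25H were listed at 0 in all 5 libraries.

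The choice of genes used no promoter sequence. It did name SREBP2 control, so the share of motifs tied to SREBP2 is not independent of that choice. RefSeq windows of 250 bases before to 50 after the start (GRCh38.p14) were found for 25 of the 29 genes, all but ACAT2, FDFT1, SQLE and ABCG1, with 34 windows in all, and a gene counted once if any window held the motif on either strand. The core of the sterol regulatory element, TCACNCCA, was in 3 of 25 genes (12%), MVK, MSMO1 and SREBF2, against 4.81% of 27303 genes with a window. The NF-Y box CCAAT, whose factor is known to act beside SREBP2, was in 19 of 25 (76%), against 39.7%. The GC box GGGCGG was in 23 of 25 (92%), against 48.3%, and the E-box CACGTG in 5 of 25 (20%), against 8.78%. The 27303 genes were not limited to coding genes or to genes above the filter, as the 25 are, so these shares compare unlike sets. In synthesis genes, NF-Y boxes were in 5 of 6 early and 8 of 9 late genes with a window, and of the synthesis genes with a difference above 0, PMVK had none and TM7SF2 had one. The first listed window of 5 genes is shown as examples: HMGCS1, MSMO1 and INSIG1 were lower, INSIG2 was higher and SREBF2 overlapped. MSMO1 and SREBF2 are among the 3 genes with the sterol element core, so the windows shown hold it more often than the 25 genes do. Sequences run 5′ to 3′ with matches to TCACNCCA or CCAAT, on either strand, in capitals; no such matches overlap each other in these windows.
HMGCS1, chr5:43313363-43313662 (minus strand): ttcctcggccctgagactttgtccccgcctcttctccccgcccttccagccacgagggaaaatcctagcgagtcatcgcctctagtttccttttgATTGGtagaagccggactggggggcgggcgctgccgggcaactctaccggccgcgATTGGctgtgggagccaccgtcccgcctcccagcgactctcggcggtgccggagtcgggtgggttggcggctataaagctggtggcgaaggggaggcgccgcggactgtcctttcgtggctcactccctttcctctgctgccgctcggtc
MSMO1, chr4:165327419-165327718 (plus strand): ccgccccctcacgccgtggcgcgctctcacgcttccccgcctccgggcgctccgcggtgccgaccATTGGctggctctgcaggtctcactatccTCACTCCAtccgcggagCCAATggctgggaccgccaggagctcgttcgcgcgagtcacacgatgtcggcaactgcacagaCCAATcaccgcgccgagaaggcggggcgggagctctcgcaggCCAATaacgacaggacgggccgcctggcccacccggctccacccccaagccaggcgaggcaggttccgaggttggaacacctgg
SREBF2, chr22:41832855-41833154 (plus strand): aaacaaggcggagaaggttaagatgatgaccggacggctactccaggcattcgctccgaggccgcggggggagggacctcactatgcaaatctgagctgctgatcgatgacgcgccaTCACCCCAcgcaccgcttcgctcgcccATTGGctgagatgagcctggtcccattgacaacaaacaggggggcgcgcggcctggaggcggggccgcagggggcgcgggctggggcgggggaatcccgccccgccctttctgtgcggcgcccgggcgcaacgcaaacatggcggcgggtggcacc
INSIG1, chr7:155297628-155297927 (plus strand): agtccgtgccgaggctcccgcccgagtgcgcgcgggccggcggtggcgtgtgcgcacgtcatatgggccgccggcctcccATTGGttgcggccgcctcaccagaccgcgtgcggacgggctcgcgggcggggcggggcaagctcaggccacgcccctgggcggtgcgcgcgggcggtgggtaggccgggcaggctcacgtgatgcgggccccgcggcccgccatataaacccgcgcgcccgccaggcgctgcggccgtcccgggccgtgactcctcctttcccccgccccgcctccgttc
INSIG2, chr2:118088300-118088599 (plus strand): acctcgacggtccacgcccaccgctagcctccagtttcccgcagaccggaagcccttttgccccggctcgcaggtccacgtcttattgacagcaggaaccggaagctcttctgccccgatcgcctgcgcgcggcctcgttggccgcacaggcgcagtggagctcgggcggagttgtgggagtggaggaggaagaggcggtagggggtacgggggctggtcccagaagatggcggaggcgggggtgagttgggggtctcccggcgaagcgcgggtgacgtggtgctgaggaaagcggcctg
HMGCS1 has NF-Y boxes starting at -155 and -100 from the start site, and the second HMGCS1 window has none. INSIG1 has an NF-Y box at -170 and an E-box at -55, while neither window of INSIG2 has an NF-Y box, an E-box or the sterol element core. MSMO1 has the sterol element core at -156 between NF-Y boxes at -185 and -139, and SREBF2 has it at -133 beside an NF-Y box at -106. CYP51A1 is without an NF-Y box in its window, and its difference was the lowest. No match says only that these letters are not in the window.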

How the data were processed

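The authors deposited a single table with an RPKM value for each gene and library, a unit given by its name and the labels. HISAT2 and GRCh38 come from the submitters' processing notes. Counter, annotation, strand use and filters are not stated in the labels, so genes whose exons overlap, on either strand, cannot be told apart. Every one of the 58676 IDs is in GENCODE 29. Multiplied by exon length, the RPKM values of the 5 libraries used are whole numbers of reads (100% of those above 0, tolerance 0.002 of a read), and these reads give the depths and the voom alternatives.

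Differences are from limma 3.58.1 (R 4.3.3; lmFit, eBayes with trend) on log2(RPKM + 0.5), which understates changes of low genes. A gene was tested if 3 or more libraries had at least 0.5 RPKM, and p-values were adjusted by Benjamini-Hochberg over all such genes. The code was tested on simulated data. The genes and lists were chosen with earlier results of these data known. Values per library are given for the 4 genes of early and of late synthesis with the largest absolute moderated statistic and for all genes of the other steps; from each other list the 2 genes of smallest unadjusted p are named, except that some are not reported here. An exact two-sided permutation of 2 against 3 libraries cannot go below p = 0.1 and was not used. Alternatives were other pseudocounts, filters and scalings, no trend, the replicate number as a block, voom, thinned reads, removal of length and GC trends, and leaving out each library. Promoters and microRNAs are RefSeq sequences.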

Additional observations from a re-analysis of the deposited data

How the results depend on the processing

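Over 18 settings, the one reported included, 28 of the 29 genes kept the sign of their difference and 0 passed the threshold. The settings are not all separate checks of sign. Other filters and no trend leave each estimate as it was, and the replicate block gives the same estimates as leaving out control replicate 2. MYLIP kept its sign at a lowest difference of 0.00054. NPC1 was -0.53 to 0.094 when each library was left out in turn, above 0 without knockdown replicate 3. The lowest adjusted p of any of the 29 genes was 0.0974, for HMGCS1 with limma voom and sample weights, a setting that called 4 of all genes and 0 of the 29. The number of genes with an unadjusted p under 0.05 was 977 as reported and 186 without knockdown replicate 3. The median over all genes stayed within 0.05 of 0.

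With the replicate number as a block, limma called 40 of all genes and 0 of the 29, with 1 residual degree of freedom, and the median of the 29 genes was -0.36. Across genes, the difference between control replicates 1 and 3 had a correlation of -0.077 with that between knockdown replicates 1 and 3. The numbers are thus not shown to pair these libraries. Replicate 2 could not be checked, since its knockdown library was left out.

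Thinned to the shallowest library, the median was -0.34 for early synthesis, -0.26 for late synthesis and 0.024 for export. Removing length and GC trends gave 0.050 for export and 0.22 for oxysterol and bile acid synthesis. Leaving out each library gave medians of -0.44 to 0.094 for uptake, 0.074 to 0.15 for export, -0.23 to -0.0013 for other SREBP processing genes, -0.28 to 0.017 for lipoprotein receptors, -0.38 to -0.092 for other export genes and nuclear receptors, 0.23 to 0.47 for oxysterol and bile acid synthesis, -0.26 to 0.021 for the isoprenoid branch and -0.22 to -0.017 for esterification and transfer. Single genes also moved by over 1.5 times from the difference reported: ACAT2 was -0.60 to -0.23, MVK -0.41 to -0.12, MVD -0.41 to -0.16, FDPS -0.37 to -0.11, EBP -0.45 to -0.14, SREBF2 -0.29 to -0.072, TM7SF2 0.19 to 0.51, NPC1L1 0.044 to 0.21, NR1H3 0.085 to 0.25 and SCAP 0.083 to 0.18. Genes that the results lead with moved too, by under 1.5 times: HMGCS1 was -1.23 to -0.80, INSIG1 -0.64 to -0.37 and INSIG2 0.72 to 0.98. Likewise SQLE was -0.84 to -0.41, FDFT1 -0.66 to -0.36, IDI1 -0.64 to -0.32, NSDHL -0.50 to -0.28 and PMVK 0.28 to 0.53. The cause of these shifts was not tested. With 2 knockdown libraries, and 1948940 reads in control replicate 2, the precision of small differences is limited.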
